A study of Arabidopsis thaliana with 8 samples.

Results

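AT5G19940 and AT2G46910 encode plastoglobulins of the fibrillin family, and each was read by 1 probe whose platform annotation names that gene and no other. These 2 probes were taken from 3439 on the array, of which 692 are named for a single gene. Both loci were picked with earlier results of the same arrays known, and AT5G19940 was in effect chosen by its large decrease in normalised log2 intensity. It stood at place 9 of 583 tested single-gene probes ordered from the largest fall, and AT2G46910 stood at place 144. The differences between genotypes given for both genes are therefore descriptions and carry no test.

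Plastoglobules are lipid bodies of chloroplasts that are continuous with the outer leaflet of the thylakoid membrane. They store prenylquinones such as tocopherol and plastoquinone, together with neutral lipids and carotenoids, and they enlarge or multiply when thylakoids are stressed or dismantled. Fibrillins, also called plastoglobulins, are lipocalin-like proteins that coat these bodies or reside at thylakoids and in the stroma, and the family is nuclear-encoded.

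RNA came from Arabidopsis thaliana of the Wassilevskija ecotype on MS (Murashige and Skoog) medium, with 4 arrays of wild type (WT) and 4 of the atpd mutant. The mutant has no delta subunit of ATP synthase, the part that in the chloroplast enzyme ties the catalytic head to its membrane-bound portion. Growth medium and ecotype were shared by both genotypes, and the labels name no age, tissue or allele. Separate plants or cultures for the arrays of one genotype are not mentioned either, so every spread below is between arrays and may be technical.

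Deposited intensities are on an arbitrary linear scale that ends at 100, and the whole distribution differed between genotypes. The median of probes above 0 was 0.279 to 0.303 on WT arrays and 0.613 to 0.705 on atpd arrays. On the log2 scale atpd was higher by 1.49 at the 10th percentile and by 1.17 at the 50th, and lower at the 99th (-0.34). Replicates 1 and 2 of a genotype resembled each other, as did replicates 3 and 4. The median absolute log2 difference between atpd arrays was 0.0966 and 0.0900 within these pairs and 0.330 to 0.332 across them, and between WT arrays 0.238 and 0.227 within and 0.412 to 0.432 across. For this reason each gene is described below by its deposited intensity, by its percentile among the probes above 0 on the same array, and by its log2 change after quantile normalisation, which gives all arrays the same distribution.

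The probe of AT5G19940 was dimmer in atpd than in WT by every one of these measures. Its deposited intensity in WT was 0.449, 0.366, 0.426 and 0.434 on replicates 1 to 4. In atpd it was 0.146, 0.148, 0.237 and 0.158. Every atpd array lay below every WT array, and atpd replicate 3 was the highest of its genotype. A lower atpd intensity without overlap occurred for 9.27% of the 2848 probes above 0 on all arrays, whereas 59.4% of them were higher in atpd without overlap. The mean was 0.419 ± 0.0365 in WT and 0.172 ± 0.0435 in atpd (SD, n = 4 in each), a ratio of WT to atpd of 2.43.

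Within its array, AT5G19940 moved from the upper middle of the distribution to its lower end. Its percentile on WT replicates 1 to 4 was 70.3, 62.4, 64.0 and 64.5, and on atpd replicates 1 to 4 it was 5.03, 5.30, 8.50 and 3.70. The groups did not overlap, which for a lower percentile in atpd held for 30.3% of the 2848 probes. The mean percentile was 65.3 ± 3.47 in WT and 5.63 ± 2.03 in atpd (SD, n = 4), a difference of -59.7 percentage points. The difference in deposited intensity and that in percentile count the same arrays and are not separate evidence.

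After quantile normalisation the log2 level of AT5G19940 was -0.74 ± 0.11 in WT and -3.50 ± 0.37 in atpd (SD, n = 4). The change was -2.76 (SE 0.20), a 6.77-fold lower level, while the median change of all 2921 tested probes was -0.090. A change as low or lower occurred for 1.13% of tested probes, a place that follows from how the gene was chosen. In atpd the probe lay near the low end of the array, at a mean percentile of 5.63, and with a pseudocount of 0.1 the change was -1.81. The size of the change also depended on how the arrays were scaled. It was -1.31 with the values as deposited, -2.48 when every array was given the same median and -2.52 under cyclic loess. The median of all probes moved with the scaling as well, to 0.996, -0.17 and 0.030 in the same order. Relative to that median the change of AT5G19940 was -2.67 on quantile-normalised values, -2.55 under cyclic loess and -2.30 both as deposited and with equal array medians.

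The change of AT5G19940 was alike in both pairs of arrays. It was -2.81 in replicates 1 and 2 alone and -2.70 in replicates 3 and 4 alone. The SE was 0.41 instead of 0.20 when array pairs entered as a random block, and 0.28 with pair means. Without atpd replicate 3, the brightest array of its genotype for this probe, it was -3.00.

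**Figure D1:**
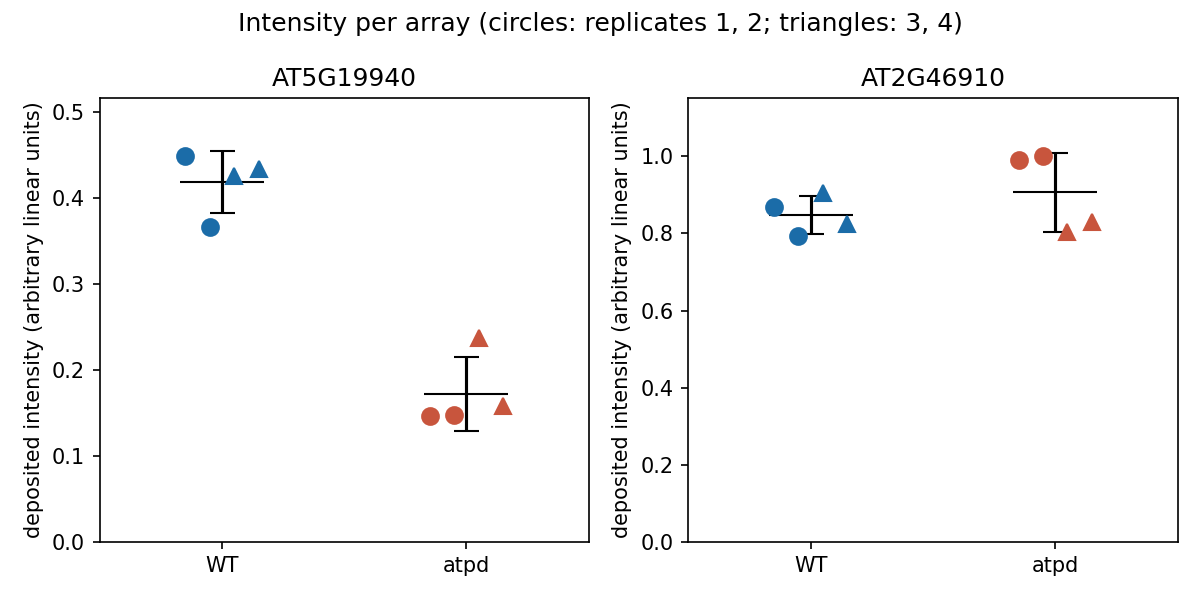
Deposited intensity (arbitrary linear units, y axis) of AT5G19940 and AT2G46910 on each array by genotype (x axis), with the mean as a horizontal bar and ± SD (n = 4). For AT5G19940 all atpd arrays lie below all WT arrays (means 0.172 and 0.419), while for AT2G46910 the genotypes overlap (means 0.906 and 0.847).

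The probe of AT2G46910 behaved differently on the deposited scale. Its intensity in WT was 0.867, 0.793, 0.904 and 0.824 on replicates 1 to 4, and in atpd it was 0.989, 1.001, 0.805 and 0.829. The genotypes overlapped, with atpd replicates 1 and 2 above all WT arrays and atpd replicates 3 and 4 inside the WT range. The mean was 0.847 ± 0.0486 in WT and 0.906 ± 0.103 in atpd (SD, n = 4), a ratio of atpd to WT of 1.07.

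Its place within the array was nevertheless lower in atpd, where 59.4% of the probes above 0 on all arrays were brighter without overlap. The percentile of AT2G46910 was 88.2, 86.3, 86.1 and 83.7 on WT replicates 1 to 4. It was 74.8 on atpd replicate 1 and 74.8 on atpd replicate 2, against 59.7 and 60.3 on atpd replicates 3 and 4. No atpd array reached the WT range, against the same background of 30.3% of probes. The mean was 86.1 ± 1.81 in WT and 67.4 ± 8.57 in atpd (SD, n = 4), a difference of -18.7 percentage points.

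The normalised log2 level of AT2G46910 was 0.10 ± 0.10 in WT and -0.66 ± 0.28 in atpd (SD, n = 4), a change of -0.77 (SE 0.17). A change as low or lower occurred for 25.1% of tested probes. With the values as deposited the sign turned, to 0.092, and the change was -1.08 with equal array medians and -0.60 under cyclic loess. Relative to the median of all probes it was -0.68 on quantile-normalised values, -0.63 under cyclic loess and -0.90 both as deposited and with equal array medians. Equal array medians add a constant to each array, so that value repeats the deposited one by construction. AT2G46910 thus lay below the median change in these 4 scalings, and whether its own signal fell cannot be told from intensities of unknown scaling.

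Within each array pair AT2G46910 was again lower in percentile in atpd. The difference was -12.4 percentage points in replicates 1 and 2 and -24.9 in replicates 3 and 4, and the log2 changes were -0.61 and -0.93. A difference between the pairs was not tested. The SE of 0.17 rose to 0.22 with array pairs as a random block and to 0.32 with pair means.

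**Figure D2:**
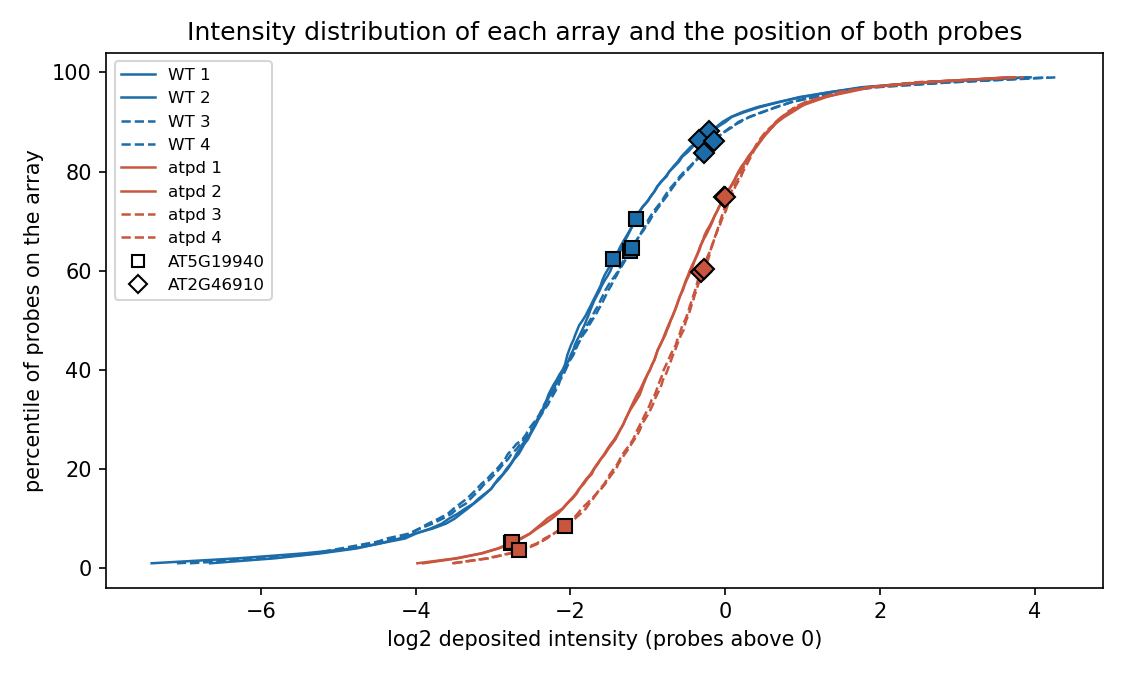
Percentile of probes (y axis) against log2 deposited intensity (x axis) for each array, drawn for probes above 0 (solid lines, replicates 1 and 2; dashed lines, replicates 3 and 4), with squares for AT5G19940 and diamonds for AT2G46910. The atpd curves lie to the right of the WT curves by 1.17 at the 50th percentile; AT5G19940 drops both to the left and down, and AT2G46910 moves down with little movement along the x axis.

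Both probes varied less among arrays of a genotype than the median tested probe. The residual SD of the normalised log2 level was 0.27 for AT5G19940, at the 40.1th percentile of tested probes, and 0.21 for AT2G46910, at the 23.9th percentile. The coefficient of variation of the deposited intensity was 8.70% in WT and 25.2% in atpd for AT5G19940. It was 5.74% and 11.4% for AT2G46910. On that scale the coefficient was larger in atpd for both genes, with replicate 3 apart for AT5G19940 and a step between the array pairs for AT2G46910. The difference in spread was not tested.

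The 2 genes changed to unequal extents. The difference between their log2 changes, AT5G19940 minus AT2G46910, was -1.40 (SE 0.24) on the deposited scale and -1.99 (SE 0.25) after quantile normalisation. Only a factor equal for all probes of an array cancels in it. The shift between genotypes varied with brightness, and the 2 probes differed in brightness, so part of that shift can remain. The size of the difference thus depended on the scaling, while its sign was the same on both scales. Since AT5G19940 was chosen for its fall, this difference is not tested.

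The fibrillin family was written out as 14 loci from textbook knowledge, and the reference table gives no description for those with values here. Single-gene probes exist for 5 of them, namely the pair above and AT2G35490, AT1G51110 and AT5G09820. A further 6 loci occur only on probes that list several genes, and 3 are on no named probe. One of the 5 probes that list a fibrillin locus among several genes includes AT2G46910, and none of these was used.

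None of the 3 other fibrillin loci passed the test of the genotype difference (limma across all tested probes, Benjamini-Hochberg adjusted p under 0.05), where 51.8% of the 2921 tested probes passed. By unadjusted p under 0.05, 0 of the 3 passed as well, where 1678 of the 2921 tested probes did. AT2G35490 differed by -0.24 (SE 0.20, limma adjusted p = 0.345), AT1G51110 by -0.28 (SE 0.22, limma adjusted p = 0.324) and AT5G09820 by 0.20 (SE 0.29, limma adjusted p = 0.601). All 3 had calls as deposited, where they were higher in atpd by 0.96 (AT2G35490), 0.96 (AT1G51110) and 1.48 (AT5G09820) against the median of 0.996 (limma adjusted p = 0.00112, 0.0105 and 0.00212). On that scale 2089 of the 2921 tested probes had calls, 1829 of them higher in atpd.

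Their deposited intensities rose with the bulk of the array. That of AT2G35490 was 0.358, 0.338, 0.254 and 0.241 on WT replicates 1 to 4 and 0.607, 0.622, 0.528 and 0.537 on atpd replicates 1 to 4. In percentiles AT2G35490 went from 50.5 ± 10.5 in WT to 42.3 ± 8.95 in atpd (SD, n = 4), with overlap. Replicates 1 and 2 stood higher than replicates 3 and 4 in both genotypes for this locus.

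AT1G51110 was at 0.163, 0.153, 0.209 and 0.235 in WT and at 0.272, 0.275, 0.492 and 0.482 in atpd. Here replicates 3 and 4 were the higher ones in both genotypes, and the percentile was 30.3 ± 7.94 in WT and 23.5 ± 8.15 in atpd. AT5G09820 was at 0.164, 0.259, 0.215 and 0.0965 in WT and at 0.535, 0.507, 0.427 and 0.465 in atpd, with percentiles of 12.8 to 46.7 in WT and 25.2 to 42.6 in atpd that overlapped. Without WT replicate 4, its dimmest array, the change of AT5G09820 was -0.050.

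Set against the mean change of these 3 loci within the same arrays, the change of AT5G19940 differed by -2.45 (SE 0.21) on the deposited log2 scale and by -2.65 (SE 0.23) after quantile normalisation. For AT2G46910 the corresponding differences were -1.05 (SE 0.16) and -0.66 (SE 0.13). In all 4 scalings the order of the changes began with AT5G19940 as the lowest and AT2G46910 as the next, and ended with AT5G09820. With equal array medians the order is that of the deposited values by construction. The first place follows from how AT5G19940 was chosen, and AT2G46910 was likewise picked with results of these arrays known. The places of both, and their differences from the other 3 loci, carry no test.

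**Figure D3:**
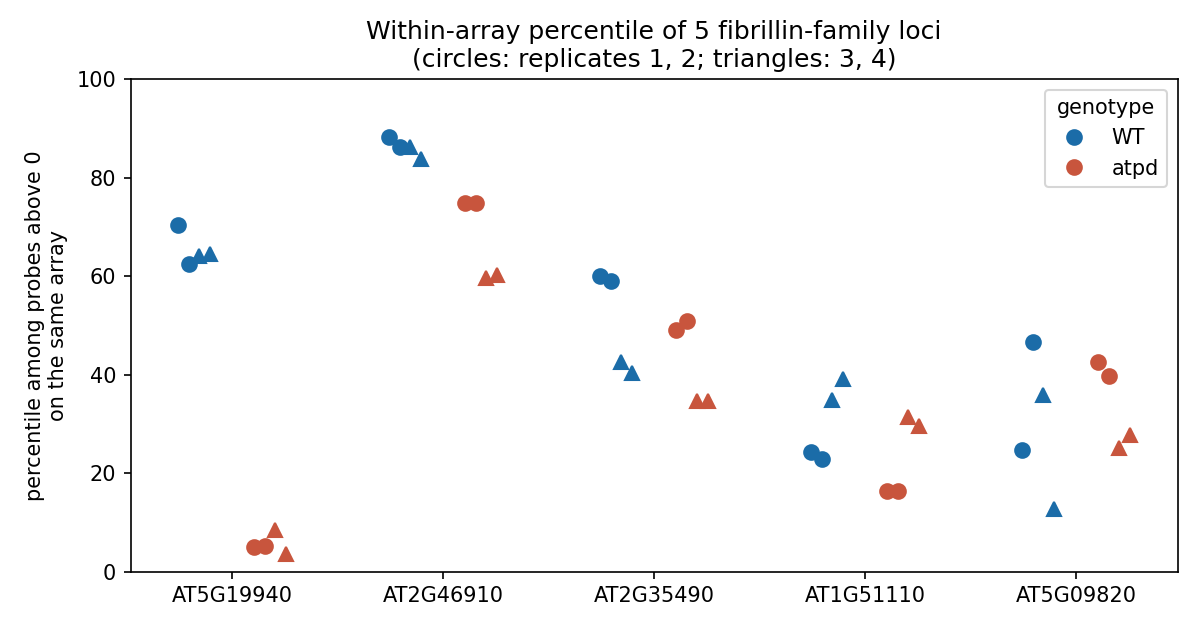
Percentile among probes above 0 on the same array (y axis) for the 5 fibrillin loci with a single-gene probe (x axis), 1 point per array and 4 arrays per genotype (blue, WT; red, atpd). AT5G19940 goes from 62.4 to 70.3 in WT to 3.70 to 8.50 in atpd, AT2G46910 from 83.7 to 88.2 to 59.7 to 74.8, and the genotypes overlap for the other 3 loci.

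**Figure D4:**
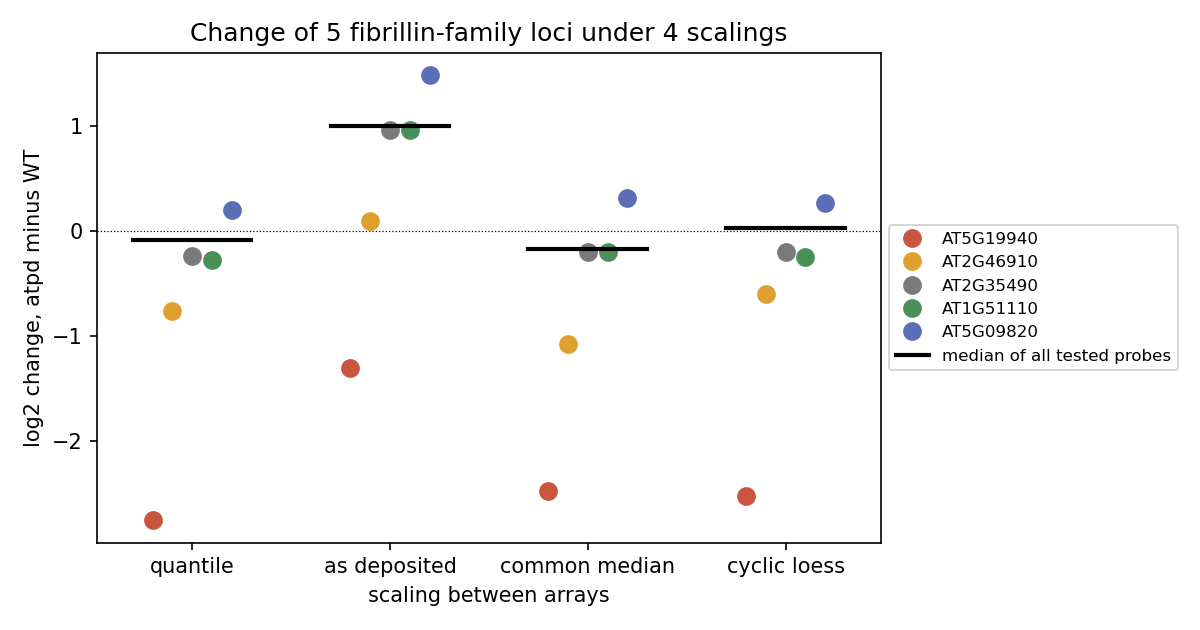
Log2 change, atpd minus WT (y axis), of the 5 fibrillin loci under 4 scalings of the arrays (x axis), with a black line at the median change of all 2921 tested probes. Relative to the line AT5G19940 lies at -2.67 to -2.30 and AT2G46910 at -0.90 to -0.63, the latter above 0 as deposited (0.092).

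Among plastoglobule proteins other than fibrillins, 3 of 19 listed loci were tested, of which 1 rose, 1 fell and 1 did not pass, beside 21.4% of tested probes that rose and 30.4% that fell. Their median change was 0.11. The reference table carries no description of these loci, and their place in the list comes from textbook knowledge. AT3G27110 fell by 1.17 on the log2 scale (SE 0.23, limma adjusted p = 0.00275), although its deposited intensity was 0.164 ± 0.0493 in WT and 0.198 ± 0.0427 in atpd (SD, n = 4). As deposited its change was 0.29 (limma adjusted p = 0.306), and when each array pair was averaged the call was lost (limma adjusted p = 0.0580).

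AT4G13200 rose by 0.66 (SE 0.15, limma adjusted p = 0.00565), from an intensity of 0.245 ± 0.0351 in WT to 0.835 ± 0.0992 in atpd (SD, n = 4). As deposited the change was 1.77. With array pairs as a random block its adjusted p in limma was 0.0726, and with pair means 0.150. AT3G24190 differed by 0.11 (SE 0.28, limma adjusted p = 0.769). Its WT intensity was 0.550 and 0.486 on replicates 1 and 2 but 1.46 and 1.42 on replicates 3 and 4, whereas its 4 atpd arrays lay between 1.41 and 1.51. Its change was 0.60 in replicates 1 and 2 (limma adjusted p = 0.0189) and -0.36 in replicates 3 and 4 (limma adjusted p = 0.0377). Each of these fits used the 2 arrays per genotype of a single array pair, so its p does not measure spread between pairs. Another locus of the list, AT1G32220, was not tested. It was above 0 on 1 WT array, at 0.00135, and on 3 atpd arrays, at 0.0248, 0.244 and 0.202, and is listed at 0 on the others.

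Of the lipids that plastoglobules hold, prenylquinone synthesis was represented by 2 of 14 listed loci and neither passed the test, where 51.8% of all tested probes did. AT1G74470, the geranylgeranyl reductase that supplies the phytyl chain of tocopherol and chlorophyll, was bright in both genotypes, at percentiles of 94.7 ± 1.36 in WT and 95.0 ± 0.804 in atpd (SD, n = 4). Its change was 0.046 (SE 0.20, limma adjusted p = 0.867), but -0.90 with equal array medians (limma adjusted p = 0.0116). AT1G78620 differed by 0.19 (SE 0.39, limma adjusted p = 0.712), with -0.73 in replicates 1 and 2 (limma adjusted p = 0.0208) and 1.13 in replicates 3 and 4 (limma adjusted p = 0.00894). The p-values of the fits within array pairs again do not measure spread between pairs.

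Carotenoid synthesis had 1 tested locus of 15. AT1G10830, Z-ISO, the isomerase of 15-cis-zeta-carotene, rose by 0.70 (SE 0.20, limma adjusted p = 0.0160), from an intensity of 0.443 ± 0.0971 to 1.32 ± 0.127 (SD, n = 4), a change of 1.59 as deposited. The call was lost with equal array medians (0.42, limma adjusted p = 0.144), with array pairs as a random block (limma adjusted p = 0.0612) and with pair means (limma adjusted p = 0.178).

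Thylakoid lipids and membrane formation likewise had 1 tested locus of 15. AT1G03160, FZL, a dynamin-like GTPase of thylakoid organisation, fell by 2.11 (SE 0.21, limma adjusted p = 7.05e-05, and 0.0107 with pair means). Its deposited intensity was 0.104 ± 0.0228 in WT and 0.102 ± 0.0189 in atpd (SD, n = 4), and with the values as deposited the change was -0.022 (limma adjusted p = 0.926). It was -1.19 with equal array medians and -1.05 under cyclic loess. FZL and AT2G46910 thus both kept a near-constant deposited intensity while falling in percentile, FZL from 13.8 ± 3.62 to 1.98 ± 0.604 (SD, n = 4).

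The labels name no tissue. Markers of green tissue were at or near the top of each array: 3 of 13 were tested, PSAN of photosystem I, the Calvin cycle enzyme PRK and the antenna protein LHB1B2, with mean percentiles of 97.0 to 99.8 in WT and 89.9 to 99.3 in atpd. All 3 fell, as did 30.4% of all tested probes, with changes of -1.49 for PSAN (SE 0.23, limma adjusted p = 0.000707), -1.51 for PRK (SE 0.12, limma adjusted p = 2.61e-05) and -1.14 for LHB1B2 (SE 0.17, limma adjusted p = 0.000717). With pair means the limma adjusted p was 0.0354 for PSAN, 0.0199 for PRK and 0.0401 for LHB1B2. The sizes of these changes depended on the scaling. With equal array medians the changes were -2.82 for PSAN, -2.41 for PRK and -2.80 for LHB1B2, and under cyclic loess they were -0.90, -0.87 and -0.37, where the call of LHB1B2 was lost (limma adjusted p = 0.0562). On the deposited scale the ratio of WT to atpd was 3.16 for PSAN, 2.37 for PRK and 3.08 for LHB1B2, beside 2.43 for AT5G19940. The markers were brighter than AT5G19940, and the log2 shift between genotypes was 1.17 at the 50th percentile but -0.34 at the 99th. Their ratios and that of AT5G19940 therefore do not measure the same extent of change. Fewer green cells, less RNA per cell and a difference in array scale between genotypes cannot be told apart in these samples. Of the 8 root and flower markers listed, 0 have a single-gene probe, so their share was not tested.

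**Figure D5:**
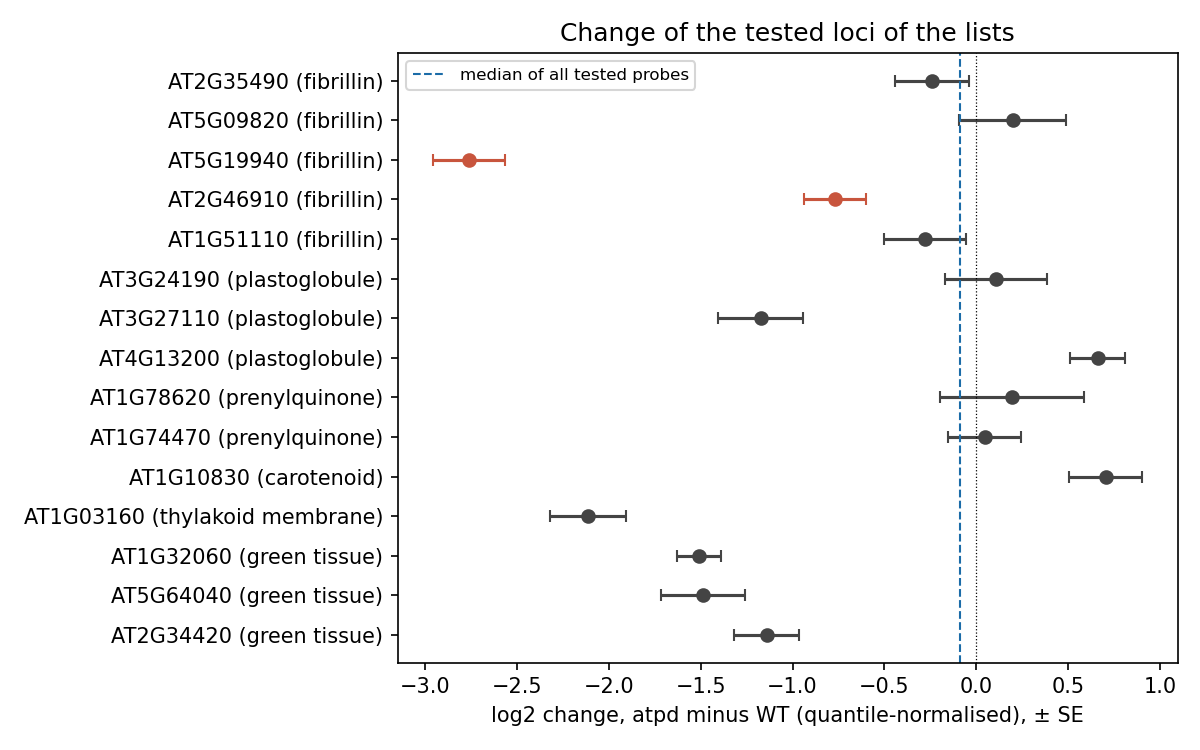
Log2 change after quantile normalisation, atpd minus WT (x axis), with SE, for the 15 tested loci of the lists (y axis), with AT5G19940 and AT2G46910 in red and the median of all tested probes as a dashed line at -0.090. On this scale AT5G19940 (-2.76) and FZL (AT1G03160, -2.11) have the lowest values; with equal array medians PSAN (-2.82) and LHB1B2 (-2.80) lie below AT5G19940 (-2.48), and as deposited they do too (-1.66 and -1.63 against -1.31).

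Profiles over the 8 arrays were compared with those of 570 other single-gene probes above 0 on all arrays, by the root-mean-square difference of the centred, normalised log2 levels. Closest to AT5G19940 were AT2G04700, with a difference of 0.31 on the log2 scale, AT5G19540 (0.39) and AT1G32730 (0.41), where the median over all compared probes was 1.44. Their own changes were -2.39, -2.13 and -2.19. Closest to AT2G46910 were AT2G23390 (0.074), AT3G12930 (0.086) and AT1G13990 (0.088), against a median of 0.63, with changes of -0.74, -0.73 and -0.72. The genotype contrast and the array pairs are shared by all of these profiles.

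These genes were picked by profiles that hold the genotype contrast, so their normalised falls follow from the choice. The 3 genes closest to AT5G19940 had lower deposited intensities in atpd, from 0.599 to 0.253 for AT2G04700, from 2.44 to 0.833 for AT5G19540 and from 5.21 to 1.43 for AT1G32730 (means of 4 arrays). Those closest to AT2G46910 had higher ones, from 0.234 to 0.340 for AT2G23390, from 0.658 to 0.773 for AT3G12930 and from 0.392 to 0.533 for AT1G13990. Like AT2G46910, the latter 3 lost place within the array without a lower deposited intensity. The deposited direction in both sets largely follows from the choice as well. It combines the normalised change with the shift between genotypes, which raised most of the atpd distribution.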

How the data were processed

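Total RNA of 4 WT and 4 atpd samples was measured on 8 arrays, grouped by the genotype and replicate number in their titles. Values in the deposited table are intensities on a linear scale, and the authors' background correction and scaling are not stated per the labels or headers. Genes were named through the platform annotation (692 probes with 1 gene, 870 with several, 1877 unnamed) and the RefSeq gene table of TAIR10.1, in which 690 of the 692 matched.

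Intensities not above 0 were set to missing, log2 values were quantile-normalised, and probes with at least 3 values per genotype (2921) were fitted with limma 3.58.1 (R 4.3.3; lmFit, eBayes, two-sided, Benjamini-Hochberg, threshold 0.05). The 2 genes and all lists were chosen with earlier results of these data known. Named loci are the 2 genes, every other fibrillin and plastoglobule locus with a single-gene probe, up to 3 loci with the smallest p of each further list, and the 3 most alike profiles per gene.

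Same-numbered WT and atpd arrays correlated in their deviations from the genotype means (r = 0.374, 0.283, 0.291 and 0.285 over 2848 probes), all over 0.1, which met the criterion for using the number as a block. WT and atpd arrays of other numbers in the same array pair correlated at 0.184 to 0.289, so these values may reflect the array pairs (replicates 1 and 2, replicates 3 and 4) rather than the number, and the labels do not say what a number shares. The arrays give no counts or depth, and their number limits the precision. Alternatives were other scalings, treatments of zeros (a pseudocount of 0.1 among them), filters, the replicate number as a block, array pairs as a random block (statmod 1.5.0), each array left out, and single-gene probes only. The means of array pairs, and percentiles within each pair, were added after the data were seen.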

Additional observations from a re-analysis of the deposited data

Results flagged for a closer look

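In the deposited intensities of the listed loci, 2 of 32 sets of 4 arrays contained 1 array set well apart from the rest. Chance would give 1.6 for independent values, which arrays in pairs and values at 0 are not, so the 2 numbers are not compared. AT5G19940 was at 0.237 on atpd replicate 3, where the other atpd arrays lay between 0.146 and 0.158. Its percentile there was 8.50, against 3.70 to 5.30. AT1G32220 was at 0.00135 on WT replicate 1 and is listed at 0 on the other WT arrays, so any value above 0 there would have been flagged.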

How the results depend on the processing

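The change of AT5G19940 kept its direction in all 21 alternatives that gave a value (the filter at the 25th percentile removed the probe), and moved by more than the spread between arrays in 3: -1.31 as deposited, -2.48 with a common median and -1.81 with a pseudocount of 0.1. Leaving out each array gave -3.00 to -2.66, and percentile differences of -60.7 to -58.0 points; among all probes, zeros included, that difference was -52.4. For AT2G46910 the change turned to 0.092 as deposited and was -1.08 with a common median, -0.86 to -0.71 with each array left out; its percentile difference was -21.1 to -16.1 with each array left out, and -12.4 and -24.9 within the array pairs. With the replicate number as a block the changes were again -2.76 and -0.77, 1656 probes were called against 1513, and no listed locus changed its call. Called probes numbered 924 with array pairs as a random block, 686 with pair means, 303 among single-gene probes only (583 tested) and 1301 to 1478 with each array left out. As deposited, 1829 were higher and 260 lower, against 625 and 888. Of the 13 other listed loci tested, 7 were called (53.8%, near the 51.8% of all tested probes), 7 with each array left out, and 4 with pair means, where 23.5% of all tested probes were called. Reversals were, as deposited, AT2G35490 (0.96), AT1G51110 (0.96) and AT3G27110 (0.29); with a common median, AT3G24190 (-0.41) and AT1G74470 (-0.90); with single-gene probes only, AT3G24190 (-0.017) and AT1G74470 (-0.26); in replicates 1 and 2, AT1G78620 (-0.73) and AT1G74470 (-0.078); in replicates 3 and 4, AT3G24190 (-0.36). With each array left out, 4 uncalled loci spanned 0: AT5G09820 (-0.050 to 0.39, below 0 without WT replicate 4), AT3G24190 (-0.087 to 0.28, below 0 without WT replicate 1 or 2), AT1G78620 (-0.052 to 0.47, below 0 without atpd replicate 3 or 4) and AT1G74470 (-0.066 to 0.14, below 0 without WT replicate 3 or 4 or atpd replicate 1). The cause was not tested.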

Other observations

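Probes numbered near that of AT5G19940 (2770) included some with large differences, which were picked after their values were seen. Probe 2768, which has no named gene, had a deposited mean intensity of 0.658 in WT and 12.2 in atpd. Probe 2772, named for AT5G63390, fell by 2.11 on the log2 scale, and probe 2765, named for AT5G19540 and farther away in number, fell by 2.13. The probes directly before and after AT5G19940 in number did not pass the test in limma (2769 at -0.94, adjusted p = 0.0511; 2771 at 0.43, adjusted p = 0.286), nor did 2767 (-0.38, adjusted p = 0.528), while 2773 fell by 0.91 (adjusted p = 0.0294). Of all tested probes 51.8% passed the test and 3.90% had a change of -2 or lower. Near the probe of AT2G46910 (21), probe 19 passed in limma (-1.44, adjusted p = 0.0006). Probes 22 (-0.21, adjusted p = 0.436) and 23 (0.48, adjusted p = 0.170) did not. The labels do not give the layout of the array, and the part of neighbouring probes in the result was not tested.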
